A study of Danio rerio with 67 samples.

Results

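Oligodendrocytes of the intact adult zebrafish spinal cord were set against the other cells that passed the same sort. Each sample was 1 cell with green fluorescence, sorted from adult spinal cord of the Tg(olig2:eGFP) line, in which regulatory sequence of olig2 drives eGFP. All cells described here came from the sham group, whose fish were anaesthetised and operated on like the lesioned fish while the cord was left intact. A piece of about 0.5 mm was taken from each of 9 cords, and the pieces were pooled, brought into suspension with a warm papain digest, and cells that calcein marked as alive were sorted. Cells of the lesion group were not compared. Members were chosen by a measured value, the level of plp1b (ENSDARG00000011929), at 10000 CPM or more, where CPM are the reads of a gene scaled to a total of 1000000 in each cell. This rule took 29 of the 35 sham cells, or 82.9% (exact 95% Clopper-Pearson interval 66.4% to 93.4%, which covers the counting of cells in this pool and not differences between pools or fish), out of 67 cells in the whole series. The 6 other sham cells lay in wells B01, C05, E03, F03, F04 and G03 of the plate. All 35 cells came from a single pool, so each side is 1 sample, cells are not replicates, no test was made, and all differences are descriptions of these cells. Since plp1b set the sides, its own values support nothing, and genes that go with it in a cell were bound to differ as well.

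Oligodendrocytes wrap axons of the central nervous system in myelin, a compact membrane rich in lipid and in a small set of abundant proteins. They arise from oligodendrocyte progenitor cells (OPCs), which are found throughout the adult cord, divide, carry receptors for glutamate and make a matrix of chondroitin sulfate proteoglycans. The factor encoded by olig2 acts at several stages of this lineage and in motor neuron progenitors, so a reporter under its control marks cells of more than 1 kind. The labels name every sorted cell an OPC. The data go against that name for the 29 cells, which were chosen by plp1b and each had at least 17513 CPM of mbpa. The OPC receptor gene PDGFRA and the OPC proteoglycan gene CSPG4 had 0 reads in them, which does not bear on the name. Neither gene marked the 6 other cells either, in which PDGFRA had 0 reads and CSPG4 at most 6.60 CPM.

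Depth was similar on both sides, and a few libraries stood apart. Oligodendrocytes had 250145 (lowest), 568761 (median) and 771417 (highest) reads on genes, and the other cells had 245408, 435540 and 661704. Among oligodendrocytes, H01 and H02 were far more alike than any other pair, with a Pearson correlation of log2(CPM + 1) of 0.81 and 71.4% of detected genes in common, against at most 0.41 and 32.4% for the remaining 405 pairs. Their counts differed by more than sampling of independent reads would give, with a chi-square of 110 per degree of freedom. For 27 further pairs it was 127 to 396. Since several reads can stem from 1 molecule, sampling noise is understated by this measure. Whether H01 and H02 share an origin was not tested, and they were kept as separate cells. Among the other cells, F03 and F04 had a correlation of 0.50, against at most 0.37 for the remaining 14 pairs. Of 30 genes with at least 200 CPM in F04 and at most 4 reads in every other cell but F03, 29 were found in F03 as well, at 3.70% of their level in F04. Of 13 such genes of oligodendrocyte D01, 10 were found in E01 at 4.33%, and of 12 of F04, 7 were found in oligodendrocyte G04 at 0.52%. Of 21 such genes of B01, on the other side, 10 were found in oligodendrocyte C01 at 0.49%. Of 10 such genes of H03, 4 were found in oligodendrocyte B02 at 9.56%. B02 had 6198 genes with 1 read or more, against a median of 2154 in oligodendrocytes. Some of the highest oligodendrocyte values given below are those of B02, such as 74.4 CPM of TRAF4 and 114 CPM of SEMA5A. The highest for GRIN1, 3.54 CPM, is that of C01. Whether low values of F03 for genes high in F04 come from F04 was not tested. Counts, list medians and ratios were also computed without H02 and without H02, E01 and F03 together. Results without G04 or B02 were not computed, and without C01 only the counts of genes that do not overlap between the sides were. The number of reads did not separate the sides, but the number of genes did in part, as the plot of genes against depth shows.

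**Figure D1:**
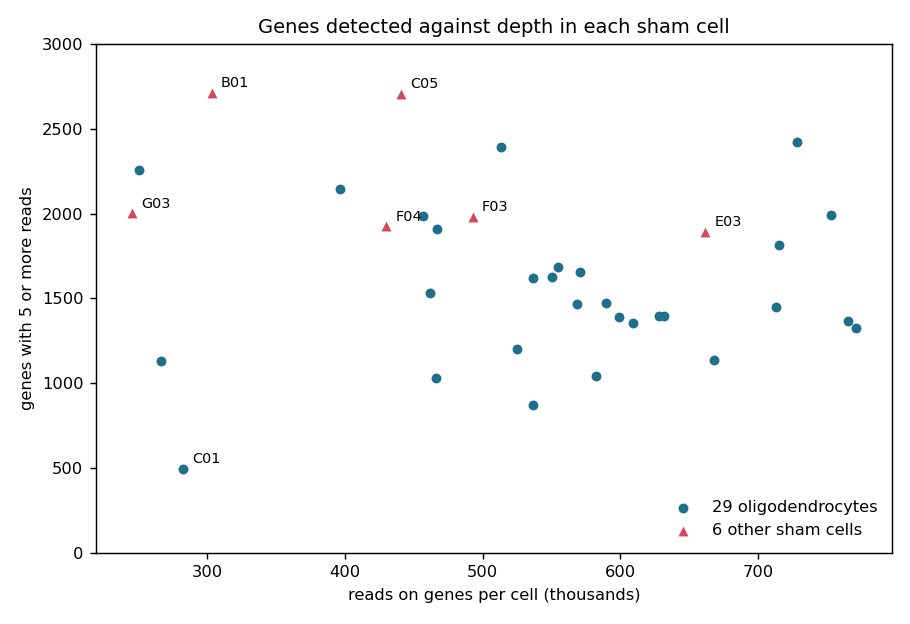
Genes with 5 or more reads (vertical axis) against reads on genes in units of 1000 (horizontal axis) for each sham cell, with circles for the 29 oligodendrocytes and triangles for the 6 other sham cells, named by well. The other cells lie between 1894 and 2713 genes, above the oligodendrocyte median of 1464, and C01 has the fewest genes of all, 496.

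The median number of genes detected per cell was lower in oligodendrocytes. Genes with 5 or more reads numbered 496 (lowest), 1464 (median) and 2421 (highest) in oligodendrocytes, and 1894, 1991 and 2713 in the other cells. The ranges overlapped: 7 of 29 oligodendrocytes had more genes than the lowest of the other cells, and 0 had more than the highest. With every cell thinned to 290687 reads, which left out 3 oligodendrocytes and 1 other cell, the numbers were 817, 1396 and 2266 in oligodendrocytes, and 1674, 1843 and 2706 in the other cells. The 10 genes with the most reads in a cell took 19.5% to 32.3% of an oligodendrocyte's reads (median 23.6%), against 8.65% to 17.98% (median 12.04%) in the other cells. Reads of ribosomal protein genes made up 1.43% to 4.31% of an oligodendrocyte's reads, against 2.18% to 8.73% in the other cells, with E03 and F03 as the highest of these. Mitochondrially encoded genes with a symbol that starts with mt- took a median of 1.52% of reads in oligodendrocytes and 2.06% in the other cells. By this share C01 stood highest, at 6.24%. Mitochondrial genes without a symbol are not in it. Among them is ENSDARG00000080337, with a median of 11351 CPM in oligodendrocytes and 10822 CPM in the other cells.

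Most measured genes differed at least 2-fold between the sides, so a 2-fold difference by itself says little. Reads were summed over the cells of a side and scaled to CPM, and 7331 genes had at least 20 CPM on either side. Of these, 37.3% were at least 2-fold higher in oligodendrocytes (2733 genes) and 42.6% at least 2-fold lower (3125 genes), with a median log2 ratio of -0.42 over all of them. Ratios are log2 of oligodendrocytes over other cells with 1 CPM added to each, which understates ratios of genes near 0. The split depends on the scaling. With TMM factors 3909 genes were higher and 1998 lower, so that 66.2% of calls were higher against 46.7% as reported, and the median of all genes moved by 1.57 on the log2 scale. With those of DESeq2 the share was 65.2% and the shift 1.48, and with the 100 genes of most reads left out of the totals they were 54.3% and 0.64. Of the 7331 genes, 1509 had 0 reads in the 6 other cells and 540 had 0 reads in the 29 oligodendrocytes. Of the same genes, 51 were detected, at 5 or more reads, in all 29 oligodendrocytes, 253 in all 6 other cells and 27 in all 35.

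A stricter measure asks that every cell of a side lie above every cell of the other. For oligodendrocytes this held for 22 genes, 0.3% of those tested, with plp1b, which set the sides, among them. For the other cells it held for 13 genes, 0.177%. Without C01, the oligodendrocyte with the fewest genes, 23 and 13 genes met it. Leaving out a cell of the smaller side changed the second number more: without E03, 47 genes were higher in every remaining other cell, and without F03 or G03 there were 20.

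Genes were also described by lists, with a limit that the filter sets. Of the 7331 genes, 2318 reached 20 CPM in oligodendrocytes alone, 2212 in the other cells alone and 2801 on both sides. A gene that passed through 1 side alone had to be higher on that side, so the counts of a list say how its genes passed the filter as much as how they differ, and they support nothing by themselves. The number of genes that passed through 1 side alone is therefore given with most of the longer lists, for many of them in 1 direction only. For most of these lists the median without a filter is given too, over the genes with at least 1 read in the sham cells. Over all such genes that median was 0.0866. The counts of every list are to be read beside 37.3% higher and 42.6% lower over all 7331 genes.

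Genes for the structural proteins of myelin set the oligodendrocytes apart. plp1b (chromosome 5, 22764321 to 22776298, GRCz10), which encodes a proteolipid of compact myelin, had 28632.5 (lowest), 46122 (median) and 78151 CPM (highest) in oligodendrocytes, and 3.30, 0, 4.53, 0, 146 and 8.15 CPM in the other cells B01, C05, E03, F03, F04 and G03. The members nearest to the threshold had 28632.5, 28750.5 and 31766 CPM, and the nearest cells outside it had 146, 8.15 and 4.53 CPM. mbpa (chromosome 19, 22229724 to 22248307), the gene of myelin basic protein, which holds the cytoplasmic faces of myelin together, had 17513 (lowest), 34315 (median) and 68183 CPM (highest) in oligodendrocytes, and 3.30, 4.54, 1.51, 0, 135 and 0 CPM in the other cells in the same order. cd59a (chromosome 7, 38424461 to 38427406), a membrane-anchored inhibitor of complement, had 33298 (lowest), 53316 (median) and 130322 CPM (highest) in oligodendrocytes, and 0, 4.54, 4.53, 0, 242 and 28.5 CPM in the other cells. For mbpa and cd59a the lowest oligodendrocyte lay more than 100-fold above the highest other cell, F04. The gap of plp1b supports nothing, since plp1b set the sides.

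The list of myelin proteins held 21 genes besides plp1b, of which 15 passed the filter, 7 of them through oligodendrocytes alone. Of the 15, 13 were at least 2-fold higher in oligodendrocytes and 2 lower, against 37.3% and 42.6% of all genes, with a median log2 ratio of 9.09 against -0.42. Their reads summed to 97370 (lowest), 130146 (median) and 211568 CPM (highest) per oligodendrocyte, and to between 22.3 and 3497 CPM per other cell (median 972). The claudin cldnk, a tight junction protein of fish myelin, summed to 5781 CPM in oligodendrocytes and 8.16 CPM in the other cells. The connexin gene GJB1, whose product forms gap junctions between myelin layers, stood at 1814 CPM in oligodendrocytes and 2.33 CPM in the other cells. mag, an adhesion molecule of the membrane next to the axon, was detected in 28 oligodendrocytes, with 0 (lowest), 1329 (median) and 3389 CPM (highest), and in 0 of the other cells, where F04 had 4.65 CPM. mbpb, a second gene of myelin basic protein, was at 470.5 CPM in oligodendrocytes, detected in 19 of 29, against 1.55 CPM in the other cells. On this list mbpa, cd59a, cldnk and GJB1 did not overlap between the sides, while SIRT2, a deacetylase, was detected in 10 oligodendrocytes and in B01 at 389 CPM.

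The exceptions on the myelin list lay in cell E03. cnp, an enzyme of non-compact myelin, had at most 1 read in any oligodendrocyte, and 1638 CPM in E03 and 0 reads in the other 5 cells. pmp22a, a tetraspan protein of peripheral myelin, had 1421 CPM in E03 and 0 reads in all 34 remaining sham cells. Cell F04 had low levels of many myelin genes, at 0.31% to 0.84% of the oligodendrocyte level for plp1b, mbpa, cd59a and cldnk, and at 16.7% for the tetraspanin TSPAN2. The source of these reads was not tested. Without F04 the log2 ratios were 13.63 for mbpa, 13.19 for cd59a and 12.50 for cldnk, against 10.50, 10.39 and 9.30 with it. TSPAN2 was present on both sides, with 14.2 (lowest), 3686 (median) and 6562 CPM (highest) in oligodendrocytes and 300.2, 302, 428, 22.3, 646 and 1679 CPM in the other cells.

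**Figure D2:**
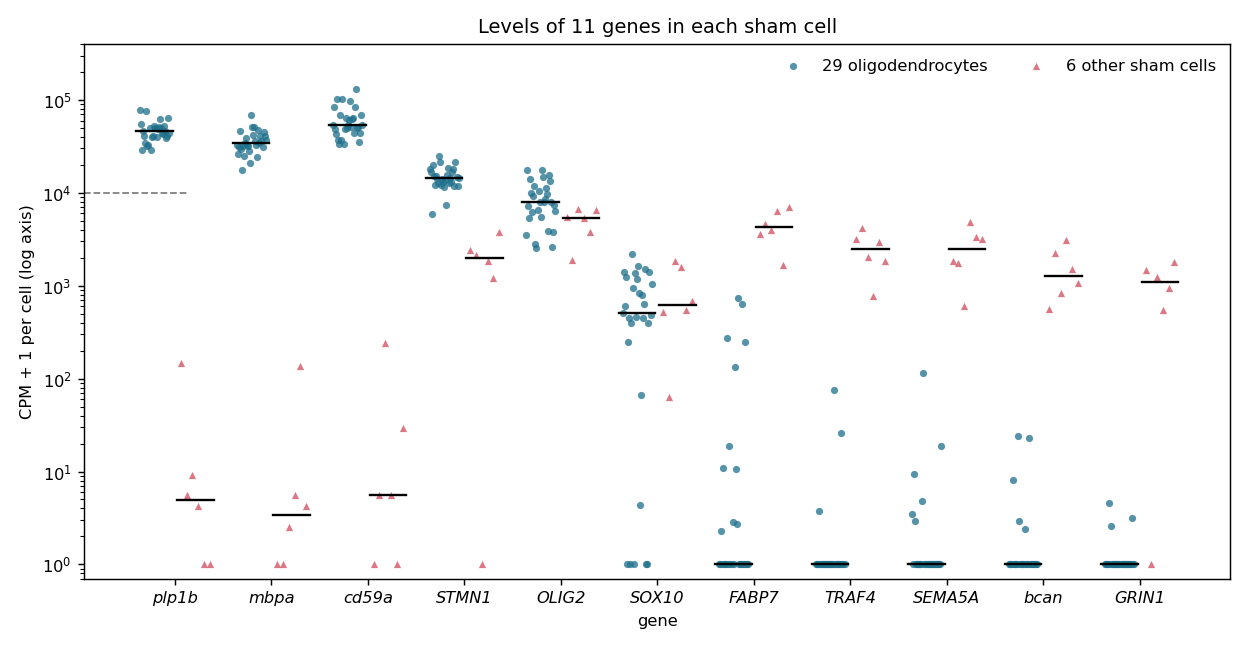
CPM + 1 per cell on a log axis (vertical) for 11 genes (horizontal), with circles for the 29 oligodendrocytes and triangles for the 6 other sham cells, black bars for medians and a dashed line at the 10000 CPM of plp1b that set the sides. plp1b, mbpa, cd59a and STMN1 do not overlap between the sides, OLIG2 and SOX10 do, and FABP7, TRAF4, SEMA5A and bcan lie higher in every other cell, while GRIN1 is at 0 in E03.

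Genes for the lipids of myelin were mostly higher in oligodendrocytes, with more cells at 0. Of 37 genes of myelin lipid synthesis 23 passed the filter, 12 through oligodendrocytes alone, and of these 23, 17 were at least 2-fold higher and 3 lower, with a median log2 ratio of 3.02 (2.01 with no filter). The summed level was 3957 to 14361 CPM in oligodendrocytes and 30.4 to 2332 CPM in the other cells, without overlap. ELOVL1 (ENSDARG00000103735), which lengthens very long fatty acids, had 14.2 (lowest), 2839.6 (median) and 6405 CPM (highest) in oligodendrocytes, and 13.95 CPM in F04 and 0 reads in the other 5 cells. The desaturase scdb had 1.86 (lowest), 1689.8 (median) and 3209 CPM (highest) in oligodendrocytes, and 472, 451, 0, 8.11, 353 and 0 CPM in the other cells. UGT8, which makes galactosylceramide, overlapped fully: it was detected in 19 of 29 oligodendrocytes, up to 2706 CPM, and in B01 and E03 at 284 and 908 CPM. FA2H, which hydroxylates the fatty acids of myelin lipids, was detected in 10 oligodendrocytes (up to 649.9 CPM) and had 6.98 CPM in F04 and 0 reads in the other 5 cells. ACACA, the enzyme that commits carbon to fatty acid synthesis, went the other way, with 44.1 CPM in oligodendrocytes and 339 CPM in the other cells.

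Cholesterol synthesis and axon contact did not divide the cells in the same way. Of 27 genes of cholesterol synthesis 11 passed the filter, 5 through oligodendrocytes alone and 3 through the other cells alone. Of the 11, 45.5% were at least 2-fold higher (5 genes) and 18.2% lower (2 genes), against 37.3% and 42.6% of all genes. The median was 0.51, and without B01 it was 4.44, against -0.27 for all genes. With a filter of 100 CPM it was -0.73, against -1.03 for all genes. Of 15 measured genes of axon and glia adhesion, 4 passed the filter through oligodendrocytes alone and 5 through the other cells alone. Of the 15, 7 were higher and 7 lower, near the 37.3% and 42.6% of all genes. The median of -0.79 ran from -1.10 to 2.36 when 1 of the other cells was left out. jam2a, a junctional adhesion molecule, was detected in 21 oligodendrocytes and had 0 reads in the other cells, with 429 CPM in the oligodendrocyte sum (at least 368-fold higher, taking 3 counts over the other cells as the upper limit of a count of 0). LGI3, a secreted protein, had 0 (lowest), 580.02 (median) and 2719.9 CPM (highest) in oligodendrocytes, and 13.2, 72.6, 0, 0, 9.30 and 261 CPM in the other cells. EPB41L3, which links membrane proteins to the cytoskeleton, summed to 704 CPM in oligodendrocytes and 38.1 CPM in the other cells. CADM4, an adhesion molecule of glia, was lower in oligodendrocytes, with 0 (lowest), 12.6 (median) and 1422 CPM (highest), against 1993, 417, 1987, 1477, 2225 and 803 CPM in the other cells. Neurofascin, encoded by NFASC, was detected in 22 oligodendrocytes with a median of 328 CPM, and F03 had 1197 CPM.

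Beyond the lists, 15 genes were named in each direction by the size of the ratio and by detection in no fewer than 60% of that side's cells. In oligodendrocytes these include mbpa, cd59a, ELOVL1 and mag, and also plp1b, which set the sides. ppp1r14aa, of a family of protein phosphatase inhibitors, had 528 (lowest), 1809.9 (median) and 3499 CPM (highest) in oligodendrocytes and 1 read in the other cells, 0.388 CPM over their sum (95% Poisson interval 0.00983 to 2.16). CSRP1, a LIM domain protein of the actin cytoskeleton, had 578 (lowest), 2802 (median) and 7252 CPM (highest) in oligodendrocytes, and 20.9 CPM in F04 with 0 reads in the other 5 cells. wnk4b, a kinase that controls ion transport, had 148 (lowest), 638 (median) and 1618 CPM (highest) in oligodendrocytes and 0 reads in the other cells, so it was at least 619.9-fold higher in oligodendrocytes. These 3 genes were present in all 29 oligodendrocytes.

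Further genes of this set were absent from some oligodendrocytes. ARRDC2, an arrestin family protein, C1QTNF4, a secreted protein, and DIXDC1, a protein of Wnt signalling, had 0 reads in the other cells and were detected in 25, 21 and 24 oligodendrocytes. Their summed levels in oligodendrocytes were 1026 CPM for ARRDC2, 863 CPM for C1QTNF4 and 691 CPM for DIXDC1. GPT, alanine aminotransferase, had 0 (lowest), 1734 (median) and 7930.2 CPM (highest) in oligodendrocytes and 4.65 CPM in F04 with 0 reads in the other 5 cells. FABP2, a carrier of fatty acids best known from the intestine, had 0 (lowest), 852 (median) and 3063 CPM (highest) in oligodendrocytes and 2.33 CPM in F04. Intervals cover counting error only, and since the reads carry no molecular identifiers, several of them can stem from 1 molecule.

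Of the 22 genes with every oligodendrocyte above every other cell, 15 have a proper gene name. They include STMN1, dhrs12la, stxbp6l, LY75 and crp1, and the other 7 carry clone names or none. STMN1 (ENSDARG00000033655), a stathmin that binds tubulin, had 5986 (lowest), 14277 (median) and 24984 CPM (highest) in oligodendrocytes, and 2408, 1202, 0, 3740.04, 2127 and 1826 CPM in the other cells. dhrs12la, of the short-chain dehydrogenase family, had 5573 (lowest), 9914 (median) and 16862 CPM (highest) in oligodendrocytes, and 175, 594, 0, 0, 25.6 and 4.07 CPM in the other cells. STMN1 was thus present in 5 of the 6 other cells at lower levels, while dhrs12la was at 25.6 CPM or less in 4 of them. LY75, an endocytic lectin receptor, had 189.96 to 2485 CPM in oligodendrocytes, against at most 11.6 CPM in the other cells. stxbp6l, related to syntaxin-binding proteins of membrane fusion, had 1194 to 8019.6 CPM in oligodendrocytes, against at most 93.0 CPM in the other cells.

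Among the genes without a proper name, a group of neighbours stood out. si:dkeyp-73d8.6, si:dkeyp-73d8.8 and si:dkeyp-73d8.9 lie within chromosome 2, 32638459 to 32660520 (GRCz10), and all 3 were higher in every oligodendrocyte than in every other cell. si:dkeyp-73d8.8 had 58.8 (lowest), 1402 (median) and 4985 CPM (highest) in oligodendrocytes, and 4.65 CPM in F04 with 0 reads in the other 5 cells. si:dkeyp-73d8.9 had 5.59 (lowest), 148 (median) and 2316 CPM (highest) in oligodendrocytes and 0 reads in the other cells, so it was at least 273-fold higher, and si:dkeyp-73d8.6 had 24.2 to 802 CPM in oligodendrocytes, against at most 2.33 CPM in the other cells. Genes so close and so named may be copies of each other, between which reads could be split. si:dkey-200l5.4, on chromosome 10, was among the 10 genes with the most reads in oligodendrocytes, with 2452 (lowest), 11731 (median) and 33026 CPM (highest), and at most 501 CPM, in F03, in the other cells. ENSDARG00000102176, on chromosome 9, for which the gene table gives no name, had 1.86 to 6052 CPM in oligodendrocytes and 0 reads in the other cells. The roles of these genes are not given by the sources used here.

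In the other direction, genes of OPCs and of their matrix were low or missing in oligodendrocytes. Of 45 genes on the list of OPC and precursor markers 29 passed the filter, 21 of them through the other cells alone. Of the 29, 26 were at least 2-fold lower in oligodendrocytes and 2 higher, with a median log2 ratio of -5.90, or -6.11 with genes of 0 reads set at their bound, and -4.88 with no filter. Summed per cell, the list had 361 (lowest), 7478 (median) and 17536 CPM (highest) in oligodendrocytes, and 22378, 22759.9, 21747, 21361, 24604 and 18903 CPM in the other cells, so every oligodendrocyte lay below every other cell. bcan (chromosome 16, 29375522 to 29400049), the gene of the proteoglycan brevican, was detected in 2 oligodendrocytes, at most at 23.3 CPM, and had 1514, 1059, 561, 3134, 837 and 2225 CPM in the other cells. cspg5a, another chondroitin sulfate proteoglycan, reached 10.9 CPM in 1 oligodendrocyte and had 1270.2, 1431, 135, 2134, 1088 and 799 CPM in the other cells. SEMA5A, a semaphorin that guides axons, had at most 114 CPM in an oligodendrocyte, and 4909, 3181, 599.97, 1734, 3344 and 1821 CPM in the other cells. E03 was the lowest of the 6 for all 3 genes.

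FABP7 (ENSDARG00000007697), a fatty acid carrier of radial glia and OPCs, was detected in 8 of 29 oligodendrocytes, up to 732 CPM, and had 1679, 3610.03, 7089, 6367, 3953 and 4633 CPM in the other cells. TRAF4, an adaptor of receptor signalling, had at most 74.4 CPM in an oligodendrocyte, and 2939.5, 778, 1862, 4158, 2014 and 3158 CPM in the other cells. CXCL12 (ENSDARG00000037116), a chemokine, had at most 15.3 CPM in an oligodendrocyte, and 2257, 2921, 0, 684, 1702 and 954 CPM in the other cells. The groups did not overlap for FABP7 and TRAF4, whereas E03 had 0 reads of CXCL12. GPM6A (ENSDARG00000004621), a membrane glycoprotein of growing processes, is on the same list but did not divide the sides, with 135 (lowest), 5492 (median) and 16616 CPM (highest) in oligodendrocytes and 4068, 6238, 8351, 1564, 7668 and 3896 CPM in the other cells. A further gene with that symbol (ENSDARG00000055455) was low in oligodendrocytes, at 0.371 CPM against 374 CPM in the other cells. GPR17, a receptor of precursors committed to the oligodendrocyte fate, was found in E03 alone, at 680.1 CPM. Those higher in oligodendrocytes were PTPRZ1, a receptor phosphatase, at 687 CPM against 195 CPM in the other cells, and MDK (ENSDARG00000036036), a secreted growth factor, at 275 CPM in oligodendrocytes. The second MDK gene (ENSDARG00000020708) was lower, at 0.309 CPM in oligodendrocytes against 408 CPM in the other cells.

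Further genes of the 15 with the lowest ratios include the kinase substrates MARCKS and marcksl1a, which bind actin and the cell membrane, SPOCK3, a testican proteoglycan, ATP1B4, of the sodium pump beta family, PROM1, a membrane protein of progenitor cells, PLK2, a polo-like kinase, and neff2. marcksl1a had at most 39.4 CPM in an oligodendrocyte, and 1333, 868, 709, 894, 2167 and 954 CPM in the other cells, with no overlap. PROM1 (ENSDARG00000034007) had 0 reads in the oligodendrocytes, at least 2502-fold lower than in the other cells, and 195, 426, 84.6, 1349, 0 and 929 CPM in the other cells. The set of 13 genes with every other cell above every oligodendrocyte holds bcan, cspg5a, SEMA5A, FABP7, TRAF4, marcksl1a, marcksl1b, RASSF2, igsf9ba, SYT9, NSG2, ZFAND2B and a clone-named gene. RASSF2, of a family of Ras effectors, had at most 46.0 CPM in an oligodendrocyte, and 365 to 2755 CPM in the other cells. SYT9, a calcium sensor of vesicle release, had at most 30.6 CPM in an oligodendrocyte, and 372 to 1316 CPM in the other cells.

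**Figure D3:**
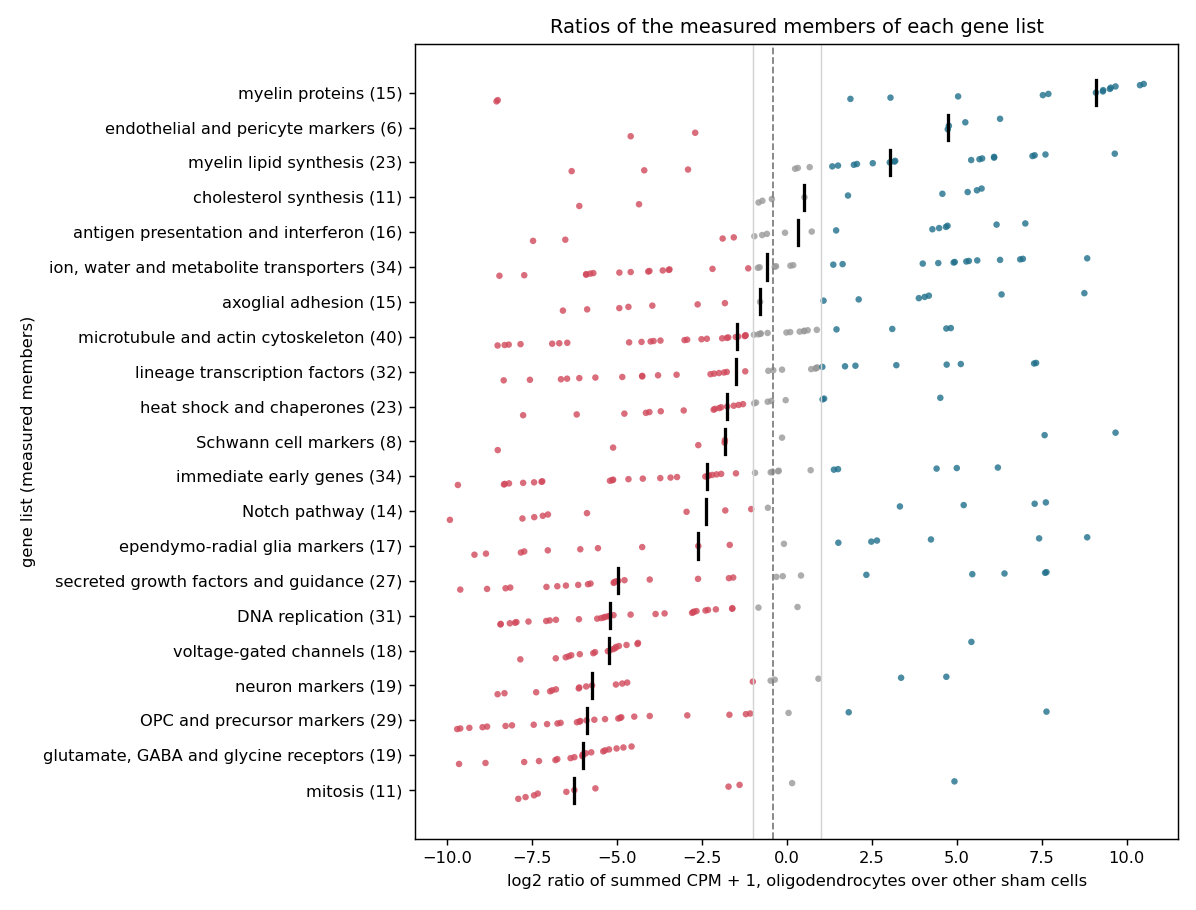
Log2 ratio of summed CPM + 1, oligodendrocytes over other sham cells (horizontal axis), for each measured member of the gene lists with at least 5 measured members (vertical axis, number in brackets). Each point is a gene, blue where at least 2-fold higher, red where at least 2-fold lower and grey between, black bars are list medians, and the dashed line is the median of all tested genes, -0.42; medians run from 9.09 for myelin proteins to -6.26 for mitosis.

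Receptors for transmitters were low in oligodendrocytes, and many of them on both sides. Of 65 genes of glutamate, GABA and glycine receptors only 19 passed the filter, each of them through the other cells alone, so that all 19 had to be lower in oligodendrocytes. Their median log2 ratio was -6.02, but that of all listed genes with at least 1 read in the sham cells was -0.83. The genes beyond the 19 were under 20 CPM on both sides. GRIN1 (ENSDARG00000027828), the obligatory subunit of NMDA receptors, had at most 3.54 CPM in an oligodendrocyte, and 1240.5, 1467, 0, 1809, 951 and 546 CPM in the other cells. GRIA2 (ENSDARG00000052765), a subunit of AMPA receptors, had at most 30.6 CPM in an oligodendrocyte, and 591, 1177, 0, 105, 3883 and 859.8 CPM in the other cells. Both were missing from E03. Another AMPA receptor subunit, gria4a, was detected in all 6 other cells, at 188, 347, 46.8, 16.2, 402 and 350.4 CPM, and in 1 oligodendrocyte. F03, in which private genes of F04 were found at 3.70% of their level, had the 16.2 CPM, and the source of these reads was not tested. Of 73 voltage-gated channel genes 18 passed the filter, 17 through the other cells alone and 1 through oligodendrocytes alone, which fixed the direction of each, and the median was -5.24 among the 18 and -0.65 with no filter. CACNG2, an auxiliary subunit of AMPA receptors from the calcium channel gamma family, had 0 reads in oligodendrocytes and 614, 234, 0, 46.6, 435 and 379 CPM in the other cells. The summed level of the receptor list per cell was at most 227 CPM in an oligodendrocyte, and 3088, 4968, 212, 3057, 7638 and 5126 CPM in the other cells. Only E03 lay within the range of the oligodendrocytes.

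Genes used as markers of neurons were low in oligodendrocytes as well. Of 49 genes 19 passed the filter, 13 through the other cells alone, and 14 were lower and 2 higher, with a median of -5.74 (-6.12 at the bound, and -4.05 with no filter). SNAP25 (ENSDARG00000020609), of the vesicle fusion machinery, had at most 288 CPM in an oligodendrocyte, and 930.4, 1456, 0, 66.9, 2193 and 342 CPM in the other cells. STMN2, a stathmin of growing axons, had at most 8.76 CPM in an oligodendrocyte, and 986, 1478, 0, 12.2, 512 and 0 CPM in the other cells. ELAVL3, an RNA-binding protein of neurons, was on the contrary detected in 14 oligodendrocytes, up to 1655 CPM, and in the other cells at 139 CPM in B01 and 30.2 CPM in E03. Defining genes of neuron classes were at or near 0 on both sides: GAD1, GAD2, SLC17A6 and ISL1 had 0 reads in all 35 cells, MNX1 had at most 3.34 CPM in an oligodendrocyte and CHAT at most 21.2 CPM, and in the other cells MNX1 had 0 reads and CHAT at most 3.02 CPM.

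Among the transcription factors of the lineage, OLIG2 and SOX10 were shared by both sides. OLIG2 (chromosome 9, 32940682 to 32942789), the source of the reporter's regulatory sequence, was detected in all 35 cells, with 2572 (lowest), 7892 (median) and 17682 CPM (highest) in oligodendrocytes and 6658, 3787, 5457, 6459.9, 1869 and 5301 CPM in the other cells. The log2 ratio was 0.84, and it ran from 0.61 to 1.91 under other scalings and sets of cells. The ranges of the 2 sides overlapped. SOX10, which acts throughout the lineage, was detected in 23 oligodendrocytes with a median of 507 CPM, and had 548, 676, 514, 62.9, 1832 and 1601 CPM in the other cells. Of 32 measured genes on the list, 11 of which passed through the other cells alone and 5 through oligodendrocytes alone, 8 were higher and 17 lower in oligodendrocytes, with a median of -1.50. This median depended on the setting: it was -0.44 with no filter, 0.15 under TMM scaling and 0.0878 under the DESeq2 size factors. The median of all genes moved up with it, to 0.0866, 1.15 and 1.06, so the list lay below it each time.

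The members of the list lay on both sides. MYRF, which switches on myelin genes, was detected in 22 of 29 oligodendrocytes, with 0 (lowest), 145 (median) and 716 CPM (highest), and had 1 read in the other cells. NKX6-2, a homeobox factor of oligodendrocytes, was detected in 12 oligodendrocytes, up to 1728 CPM, and had at most 4.06 CPM in the other cells. SOX5, a SoxD factor, was detected in 0 oligodendrocytes and had 0, 369.6, 3.02, 46.6, 939 and 309.7 CPM in the other cells. SOX6, also of the SoxD group, had 112, 9.07, 1434, 0, 0 and 0 CPM in the other cells, with E03 highest. olig1, of the same family as olig2, was detected in 10 oligodendrocytes, up to 1142 CPM, and in 5 of the 6 other cells, at 597, 311, 0, 1499, 353 and 803 CPM.

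The Notch pathway holds precursors back from differentiating. Of its 41 listed genes 14 passed the filter, 7 through the other cells alone and 4 through oligodendrocytes alone, and 4 were higher and 9 lower in oligodendrocytes, with a median of -2.39, or -0.81 with no filter. The receptor NOTCH1 (ENSDARG00000052094) had at most 2.99 CPM in an oligodendrocyte, and 878, 43.1, 0, 4.06, 319 and 77.4 CPM in the other cells. LFNG, which modifies Notch by adding sugar, had at most 7.08 CPM in an oligodendrocyte, against 5238 CPM in E03 and 265 CPM in F04. HES1, a repressor induced by Notch, was highest in F04 at 1437 CPM. Of the 4 that were higher, adam10a, a protease that cleaves Notch among other targets, was detected in 14 oligodendrocytes, up to 5782 CPM, and in none of the other cells, where F04 had 6.98 CPM.

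Of 105 genes of secreted growth factors and guidance molecules, 27 passed the filter, 18 through the other cells alone and 5 through oligodendrocytes alone. Of the 27, 5 were higher and 19 lower, against 37.3% and 42.6% of all genes, and the median was -4.97, or -0.32 with no filter. VEGFA (ENSDARG00000034700), a growth factor of vessels, had 0 reads in oligodendrocytes and 505, 338, 0, 600.4, 60.5 and 424 CPM in the other cells. PDGFA, a mitogen of OPCs, had at most 6.57 CPM in an oligodendrocyte, and 607 CPM in B01 and 514 CPM in F04. Among the genes that were higher, EFNA1 (ENSDARG00000030326), a membrane-bound guidance ligand, was detected in 13 oligodendrocytes and had 0 reads in the other cells. IGF1, a growth factor of myelinating cells, was detected in 3 oligodendrocytes only, up to 839.97 CPM, too few cells to describe the side.

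Transporters divided between the sides, with 13 of 34 higher and 15 lower in oligodendrocytes, close to the shares of all genes. Of the 34, 10 passed the filter through oligodendrocytes alone and 9 through the other cells alone. SLC1A3, a glutamate transporter of glia, was detected in 24 of 29 oligodendrocytes, with 0 (lowest), 375 (median) and 2872 CPM (highest), and had 0 reads in the other cells, so it was at least 390.4-fold higher in oligodendrocytes. SLC1A2, a further glutamate transporter of glia, went the opposite way, with at most 81.0 CPM in an oligodendrocyte, and 2102, 1553, 0, 1917, 1295 and 0 CPM in the other cells. GLUL (ENSDARG00000099776), glutamine synthetase, was detected in all 35 cells, with 239.9 (lowest), 3338 (median) and 14007 CPM (highest) in oligodendrocytes and 620.2, 1528, 2241, 1645, 1323 and 452 CPM in the other cells. The carbonic anhydrase cahz, also listed as an erythrocyte marker, was detected in 25 oligodendrocytes, with 0 (lowest), 1147 (median) and 4262 CPM (highest), and in C05 at 254 CPM. The erythrocyte gene alas2 had 0 reads in all 35 cells.

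Antigen presentation and interferon genes had 7 of 16 measured members higher and 4 lower, near the 37.3% of all genes for those higher, and the 7 passed through oligodendrocytes alone. The MHC class I light chain b2m had at most 24.1 CPM in an oligodendrocyte, and 485, 401, 376, 12.2, 349 and 738 CPM in the other cells. Its relative b2ml was on both sides, with a median of 848 CPM in oligodendrocytes and 132, 701, 388, 1529, 4.65 and 998 CPM in the other cells.

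Stress genes were high in most of the other cells and varied widely among oligodendrocytes. Per the labels, the tissue was dissociated at warm temperature, which all 35 cells went through together. The list of heat shock and chaperone genes summed to 3336 (lowest), 11320 (median) and 34792 CPM (highest) in oligodendrocytes, and to 69166, 41529, 21167, 12639.9, 73511 and 53421 CPM in the other cells. Of 23 measured members, 19 of which passed on both sides, 3 were higher and 15 lower in oligodendrocytes. Their median log2 ratio was -1.76, and it ran from -1.98 to -0.50 under other scalings, filters and sets of cells. HSP90AA1, a chaperone that is not on the list and not in its sums, had 0 (lowest), 1231 (median) and 14626 CPM (highest) in oligodendrocytes. It had 18597, 6186, 7863, 1103, 40662 and 8178 CPM in the other cells. hsp70l, an inducible chaperone with related copies between which reads may be split, had 0 (lowest), 4706 (median) and 16406 CPM (highest) in oligodendrocytes, and 19867, 22379, 1422, 998, 34198 and 22419.8 CPM in the other cells. B01, C05, F04 and G03 lay above the highest oligodendrocyte for both the list and hsp70l, and E03 and F03 within the oligodendrocyte range.

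Immediate early genes, which cells switch on soon after a stimulus, were high in 5 of the 6 other cells. The list, which also counts the chaperone HSPA8, summed to 2199, 7299 and 30873 CPM in oligodendrocytes (lowest, median, highest), and to 23919, 25957, 30018, 2592, 24535 and 29897 CPM in the other cells. F03 lay low among the 6, and 1 oligodendrocyte, E01, lay above all of them. E01 is also the cell in which private genes of D01 were found. Of 34 measured members, 14 of which passed through the other cells alone, 5 were higher and 23 lower in oligodendrocytes. FOS (ENSDARG00000031683), a subunit of AP-1, was detected in 15 oligodendrocytes, up to 2514 CPM, and had 5513, 5406, 0, 24.3, 897 and 3802 CPM in the other cells. egr4, a zinc finger factor, had at most 5.72 CPM in an oligodendrocyte, and 0, 4107, 0, 38.5, 1218 and 2274 CPM in the other cells. JUN, the partner of FOS, overlapped fully, with 0 (lowest), 1077 (median) and 8652 CPM (highest) in oligodendrocytes and 3454, 2603, 6081, 64.9, 2251 and 1422 CPM in the other cells. Whether the stress genes account for part of the differences between the sides was not tested.

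Cytoskeletal genes, many of them needed for outgrowth of processes, had 4 of 40 measured members higher and 24 lower in oligodendrocytes, 12 having passed through the other cells alone, with a median of -1.47. Under other scalings, filters and sets of cells this median ran from -1.87 to -0.27. The sums per cell overlapped, at 22750.3 (lowest), 31116 (median) and 49621 CPM (highest) in oligodendrocytes and 24988, 27486, 36107, 52795, 20745 and 24787 CPM in the other cells. Besides STMN1 (ENSDARG00000033655), map1ab, of a family of microtubule-associated proteins, was higher, at 921 CPM in oligodendrocytes against 336 CPM in the other cells. A further gene with the symbol STMN1 (ENSDARG00000004169) was lower in oligodendrocytes, with a log2 ratio of -4.28. The tubulin gene tubb2b was lower, with 1.70 to 1142 CPM in oligodendrocytes and 907, 1274, 25.7, 9671, 4.65 and 253 CPM in the other cells, and tubb4b was at 3009.97 CPM in oligodendrocytes and 2824 CPM in the other cells.

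Genes of DNA replication were low in oligodendrocytes, and their level in the other cells came from 3 of the 6. Of 50 genes 31 passed the filter, 22 through the other cells alone, and 0 were higher and 29 lower, with a median log2 ratio of -5.22, or -5.47 without F03 and -3.20 with no filter. The list summed to 0, 588 and 4734 CPM in oligodendrocytes (lowest, median, highest), and to 564, 9172, 611, 26562, 421 and 4979 CPM in the other cells. PCNA, the clamp of the replication fork, was detected in 12 oligodendrocytes, up to 1193 CPM, and had 0, 1458, 0, 11983, 9.30 and 1447 CPM in the other cells. MCM2 and MCM3, subunits of the replicative helicase, had 1 read and 0 reads in oligodendrocytes. In the other cells MCM2 had 0, 1295, 0, 0, 0 and 448 CPM and MCM3 had 0, 721, 0, 566, 0 and 558 CPM, so the cells in which they were found are C05, F03 and G03.

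The low mitosis genes of oligodendrocytes rest on a comparison with F03. Of 11 measured members, 7 of which passed through the other cells alone, 1 was higher and 9 lower in oligodendrocytes, with a median of -6.26 (-1.72 with no filter), but without F03 the median was 0.70. The list summed to a median of 718 CPM in oligodendrocytes, and to 9494 CPM in F03 and at most 901 CPM in the remaining 5 cells. TOP2A, which untangles chromosomes, and spc24, of the kinetochore, were found in F03 alone, at 1079 and 1251 CPM, and CDK1, the mitotic kinase, had at most 13.1 CPM in an oligodendrocyte and 699.7 CPM in F03. The proliferation gene mki67 had 0 reads in all 35 cells. F03 holds low levels of genes of F04, but F04 had 0 reads of TOP2A, spc24 and CDK1.

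**Figure D4:**
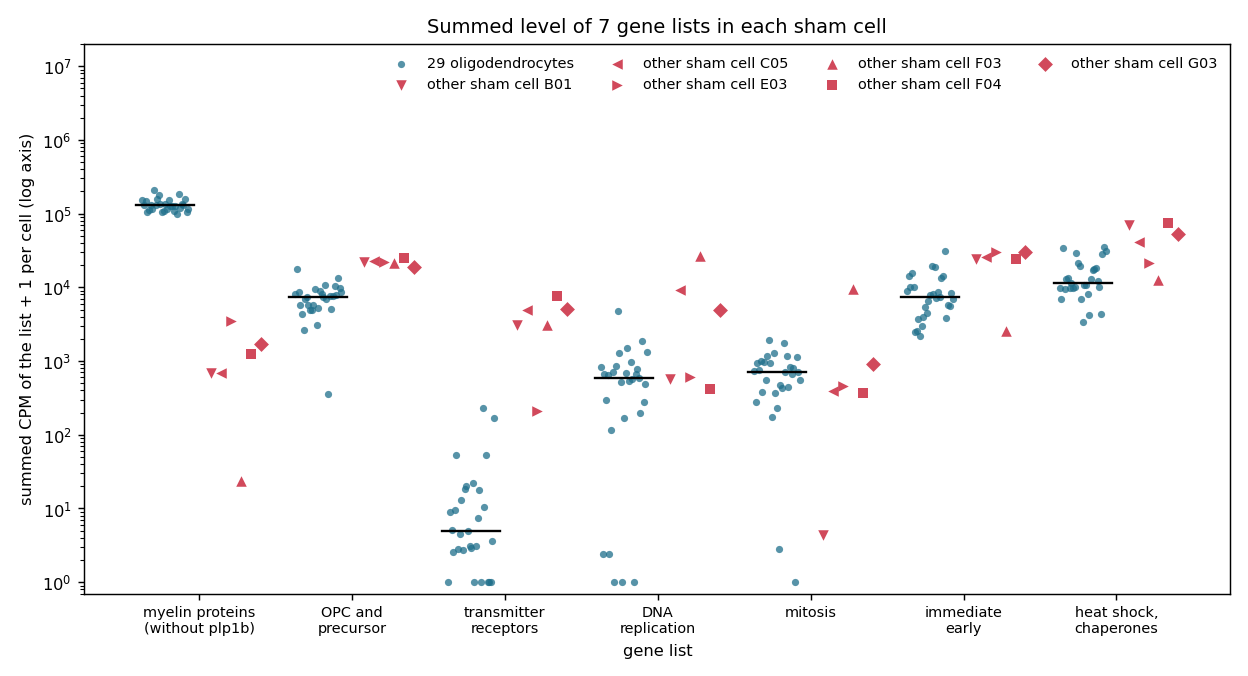
Summed CPM + 1 per cell on a log axis (vertical) for 7 gene lists (horizontal), with circles and median bars for the 29 oligodendrocytes and a marker of its own for each of the 6 other sham cells. Myelin proteins without plp1b lie at 97370 CPM or more in oligodendrocytes and at 3497 CPM or less in the other cells, F03 stands highest for replication and mitosis and lowest of the 6 for heat shock, and E03 has the lowest receptor sum of the 6.

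The 6 other cells were not alike. F03, with genes of replication and mitosis, also had the highest cytoskeleton sum of the 6, 52795 CPM. The nuclear RNA malat1 had 2968 (lowest), 11054 (median) and 18255 CPM (highest) in oligodendrocytes, and 1391 CPM in F03 and 28868 to 71147 CPM in the remaining 5 cells. E03 had GPR17, SOX6, LFNG, cnp and pmp22a, 3293 CPM of the progenitor factor SOX2, and 0 reads of GRIA2, GRIN1, SNAP25, STMN1 and CXCL12. C05 was the one cell of the 35 with reads of her12, a Notch-related repressor, at 1009 CPM and MCM4 at 735 CPM. G03 had 1447 CPM of PCNA together with the receptors GRIA2 and GRIN1 at 859.8 and 546 CPM. B01 and F04 had the highest heat shock sums, 69166 and 73511 CPM, and low replication sums. These differences are between single cells, and each library is also its own technical sample, so the cell and its library cannot be told apart. Correlations of log2(CPM + 1) were 0.26 to 0.50 within the 6 cells, 0.25 to 0.81 within oligodendrocytes and 0.12 to 0.28 across the sides.

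Within the oligodendrocytes, the main myelin genes varied little from cell to cell, while most genes were detected in some cells and not in others. Among 1596 genes with a mean of at least 100 CPM, the coefficient of variation (CV, SD over mean of per-cell CPM) had a median of 1.63 and quartiles of 1.19 and 2.04. Counting of independent reads alone would give a median of 0.102. Since several reads can stem from 1 molecule, that value understates technical noise. Transcripts missed in a library and differences between cells cannot be told apart here. Without H02 the median was 1.64, and CVs without E01 were not computed. A CV under 0.5 was found for 27 genes, and 50 genes were detected in all 29 cells, 594 in 15 to 28 and 952 in fewer than 15. The lowest values were 0.257 for plp1b, which the threshold may have narrowed, 0.270 for dhrs12la, 0.271 for STMN1, 0.289 for mbpa and 0.293 for malat1. cldnk had a CV of 0.353, cd59a 0.395 and OLIG2 0.507. CV was lower at higher levels, with a median of 1.85 over 1137 genes of 100 to 300 CPM, 1.105 over 348 genes of 300 to 1000 CPM, 0.724 over 81 genes of 1000 to 3000 CPM and 0.456 over 30 genes above 3000 CPM.

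The genes that varied most with 200 CPM or more on average and found in 40% or more of oligodendrocytes were AATK (ENSDARG00000078222), a kinase of the nervous system, FRMD4B, GAB1, an adaptor of growth factor receptors, SERINC5, rsrp1, SMIM13, adam10a, CCDC124, shrprbck1r and h2ax1, a histone. AATK had 0 (lowest), 20.4 (median) and 3923 CPM (highest) in oligodendrocytes with a CV of 3.01, and GAB1 had 0 (lowest), 0 (median) and 3622 CPM (highest) with a CV of 2.58. In GAB1 and adam10a the median cell had 0 reads, so most of their reads came from a minority of the oligodendrocytes. By list, the median CV was 0.512 over 13 myelin protein genes, 1.07 over 11 heat shock genes, 1.50 over 12 immediate early genes, 1.51 over 13 myelin lipid genes and 1.66 over 12 lineage factors. The myelin proteins had the lowest median of the lists, and the lipid genes, which lie at lower mean levels, varied about as much as the immediate early genes.

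**Figure D5:**
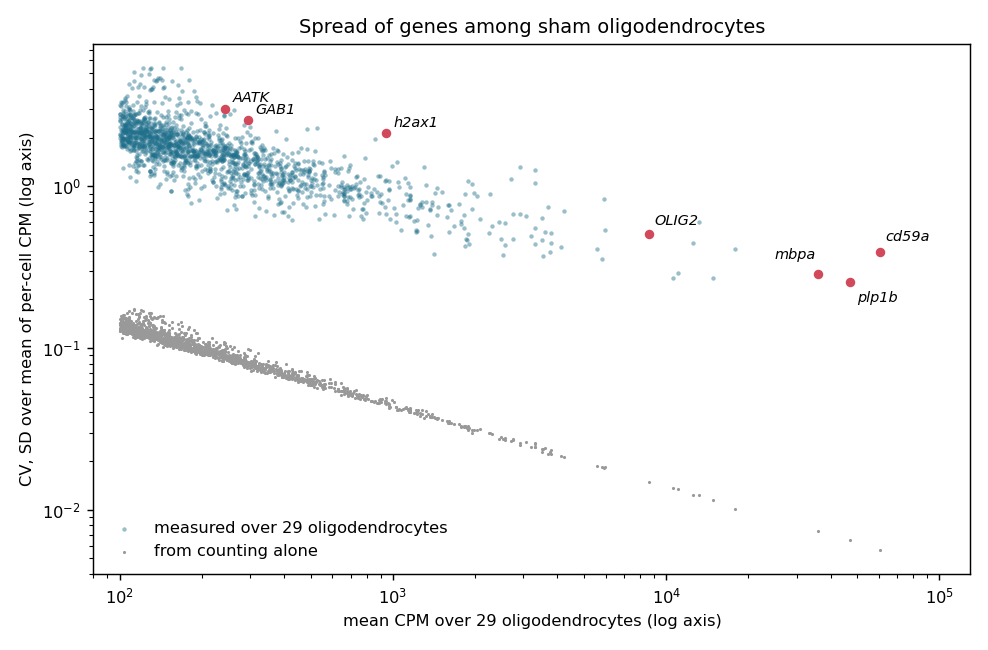
CV of per-cell CPM over the 29 oligodendrocytes (vertical, log axis) against mean CPM (horizontal, log axis) for 1596 genes of at least 100 CPM, with the CV that counting alone gives in grey. plp1b (0.26) and mbpa (0.29) lie lowest among the genes labelled in red, AATK (3.01) highest, and measured values lie above the counting values throughout. The counting values take reads as independent and so understate technical noise.

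Levels of the main myelin genes were weakly related from cell to cell. Over the 29 oligodendrocytes, which share a pool, a plate and the scaling to CPM, Spearman's rho was 0.23 between plp1b and mbpa, 0.11 between plp1b and cd59a and -0.43 between mbpa and cd59a, or 0.28, 0.096 and -0.40 without H02. The number of genes detected in a cell had a rho of 0.48 with cd59a and -0.37 with mbpa, or 0.45 and -0.32 without H02. cldnk and the summed myelin lipid genes had a rho of 0.57, or 0.55 without H02. The summed immediate early genes (without HSPA8) and the heat shock genes had a rho of 0.21, or 0.27 without H02. The genes most like plp1b, among those with 200 CPM or more on average and found in 60% or more of oligodendrocytes, were GADD45G, a stress-induced regulator of growth (0.49), ZW10, of the kinetochore and of vesicle transport (0.46), SYNGR3, a vesicle protein (0.41), SGCE, a sarcoglycan (0.41), and pabpc1a, which binds poly(A) tails (0.40), and the least like it was STARD7, a lipid carrier (-0.53). In counts this sparse, such values are no finding.

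Markers of cells outside the lineage were few on both sides. Of the microglia and macrophage list 2 genes were measured, apoeb and AIF1L, and ptprc, which marks white blood cells, had at most 3.54 CPM in an oligodendrocyte and 0 reads in the other cells. The apolipoprotein gene apoeb had 0 (lowest), 388 (median) and 3051 CPM (highest) in oligodendrocytes, detected in 20 of 29, and at most 13.95 CPM in the other cells. Of endothelial and pericyte markers 6 were measured, 4 higher and 2 lower in oligodendrocytes, and the defining genes cdh5 and PDGFRB had 0 reads in all 35 cells. The neutrophil and lymphocyte list had 1 measured gene, nccrp1, the fibroblast list 1, CXCL12, and the erythrocyte and muscle list 1, cahz, while lyz, lck, COL1A2 and alas2 had 0 reads. Of 8 measured Schwann cell genes 2 were higher and 5 lower, and the defining genes EGR2, FOXD3 and prx had 0 reads in oligodendrocytes. EGR2, a factor of Schwann cells and an immediate early gene, had 197 CPM in C05.

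Of 17 measured ependymo-radial glia markers 6 were higher and 10 lower in oligodendrocytes, against 37.3% and 42.6% of all genes, and the median of -2.61 was -0.09 with no filter. Of the 17, 2 passed the filter through oligodendrocytes alone and 6 through the other cells alone. GFAP, the filament protein of radial glia, was detected in 2 oligodendrocytes, up to 115 CPM, and had 0 reads in the other cells, and FOXJ1, a factor of ciliated ependymal cells, had 0 reads in all 35. SOX2 was detected in 2 oligodendrocytes, up to 1348 CPM, and had 3.30, 293, 3293, 0, 0 and 416 CPM in the other cells. nes, an intermediate filament gene, was detected in 11 oligodendrocytes, up to 921 CPM, and had 0 reads in the other cells. Summed per cell, the list had 4200.3 to 28582 CPM in oligodendrocytes and 7037 to 15233 CPM in the other cells, so the sums overlapped. The part of these markers in the differences between the sides was not tested.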

How the data were processed

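Single sorted cells were sequenced and the authors deposited raw read counts per gene and cell, in 1 table of all 67 cells. The submitters' processing notes name bcl2fastq 2.19.1, the aligner GSNAP, featureCounts 1.6.2 and GRCz10. Per the file headers, featureCounts 1.6.3 counted reads on Ensembl 87 genes without regard to strand and with reads of mapping quality under 1 left out, so antisense partners and near-identical copies cannot be told apart and reads of several sites are lost. The table has 32266 genes, of which 26433 have a symbol, and genes without one hold 2.57% of sham reads. Its 92 spike-in rows, with 27 reads in sham cells, were left out. Gene lists held 1154 names, of which 1051 matched.

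The members and lists were chosen with earlier results of these data known. Counts were scaled to CPM per cell, and summed over a side for ratios, with 1 CPM added and a filter of 20 CPM on either side. Genes were called detected at 5 or more reads. Since all sham cells come from 1 pool, no test was made. The code for ratios and spread was tested on simulated data. Named genes are the 15 of largest ratio in each direction that have a proper symbol, at least 100 CPM, detection in 60% of cells and the same direction without the highest cell, the 10 most abundant, those of highest or lowest CV, those most correlated with plp1b and the 4 most abundant members of each list. Genes named beyond this rule were chosen after their values were seen. Alternatives were TMM factors (edgeR 4.0.16) and DESeq2 1.42.0 size factors, other filters, priors and thresholds, plate rows, and leaving out cells. Python 3.11.15, numpy 2.4.6, pandas 2.3.3, scipy 1.17.1 and R 4.3.3 were used. Values of some single genes are not reported here.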

Additional observations from a re-analysis of the deposited data

How the results depend on the processing

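Counts of genes at least 2-fold apart depended on scaling and on the filter. The number lower in oligodendrocytes was 1998 with TMM factors, 2046 with DESeq2 size factors and 1256 without the highest cell of each gene, against 3125 as reported. With a filter of 100 CPM 753 genes were higher and 1478 lower, and with no filter 4931 were higher. Leaving out 1 of the 6 other cells at a time gave 2774 to 2910 genes higher in oligodendrocytes and 2883 to 3090 lower. In the same way, the genes with every other cell above every oligodendrocyte numbered 14 to 47, and those with every oligodendrocyte above every other cell 22 to 24. At 1 read or more, the median number of genes per cell was 2154 in oligodendrocytes and 2986 in the other cells. The median of the lineage transcription factors turned to 0.15 with TMM factors, 0.0878 with DESeq2 size factors, 0.53 without the highest cell and 0.0173 in plate rows B to E. In the same settings and order, the median of all genes was 1.15, 1.06, 1.41 and -0.17. That of mitosis genes turned to 5.75 in rows B to E, 0.70 without F03 (-6.69 to 0.70 over all cells left out in turn) and 0.80 without H02, E01 and F03. Without a filter, the fibroblast list stood at 0.17 and the erythrocyte and muscle list at -0.034, against 0.0866 for all genes. The cause of these turns was not tested. Of all values of named genes under the alternatives, 656 moved by less than the spread and 79 by more, and of list medians 499 and 16. Spread here is the SD of log2(CPM + 1) over the cells of the higher side. The thresholds of 5000 and 20000 CPM gave the same sides, and the filters do not enter the ratio of a single gene, so those values could not move. The counts are therefore no measure of stability. The cells left out as sharing reads, and C01, were chosen after seeing the data. No paired analysis was possible because all cells come from 1 pool and no result comes from a test. Each side is 1 sample, the other cells are 6, and differences between fish cannot be seen.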

Other observations

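Zebrafish often keep 2 copies of a gene that mammals have once, and the gene table gives such copies 1 symbol. Among symbols shared by 2 measured genes, each with at least 100 CPM on a side and found in 40% or more of that side's cells, there were 36 pairs. This rule was chosen after seeing the data. Both genes were at least 2-fold higher in oligodendrocytes in 4 pairs and both lower in 13, while in 6 pairs the genes lay in opposite directions and in 13 at least 1 differed by less than 2-fold. Over all genes with at least 100 CPM on a side, 753 were higher and 1478 lower. Each gene of a pair entered through the side where it was higher, and 40% is fewer cells on the smaller side. The counts of pairs therefore support nothing by themselves. MDK was the pair furthest apart, with log2 ratios of 7.63 and -8.29. IVNS1ABP, which has a Kelch domain, had 1087 CPM in oligodendrocytes and 1.17 CPM in the other cells for ENSDARG00000013946, but 92.5 CPM in oligodendrocytes and 251 CPM in the other cells for ENSDARG00000031100. MAPK8IP1, a scaffold of JNK signalling, had 182 CPM in oligodendrocytes and 0 reads in the other cells for ENSDARG00000090326, but 7.55 CPM in oligodendrocytes and 141 CPM in the other cells for ENSDARG00000102229. YWHAG, a 14-3-3 protein, had 323 CPM in oligodendrocytes and 56.3 CPM in the other cells for ENSDARG00000067626, but 6.44 CPM in oligodendrocytes and 468 CPM in the other cells for ENSDARG00000071658. ITM2C and SCHIP1 were the remaining pairs. Counting did not use reads that map equally well to 2 sites, so near-identical stretches of such pairs are not counted for either gene.

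Some genes marked a single one of the other cells and were at or near 0 in the remaining 34. LIPG, an endothelial-type lipase, had 1447 CPM in G03 and 0 reads elsewhere, and COL9A2, a collagen chain, had 1296 CPM there. In B01 CYP26B1, which breaks down retinoic acid, had 663 CPM. In F03 POLA2, a subunit of the DNA polymerase that starts new strands, had 1803 CPM and 0 reads elsewhere. In E03 CHST3, which adds sulfate to chondroitin chains, had 1182 CPM and 0 reads elsewhere.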
